A study of Mus musculus with 24 samples.

Results

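The cortical layer genes Cux1, Cux2, Rorb, Fezf2, Bcl11b, Tle4, Tbr1, Nr4a2 and Ctgf were followed in the HIP (hippocampus) and EC (entorhinal cortex) of Ts65Dn and wt mice. These 9 genes are transcription factors and markers of the layers of the neocortex, and each was matched by its Ensembl identifier to 1 entry among the 55385 genes counted. All 9 had counts in all 24 libraries and passed the filter on low counts in every comparison. Ts65Dn is a mouse model of Down syndrome that carries an extra minichromosome made of a distal segment of Mmu16 and the centromeric end of Mmu17, so that genes of Mmu17 without a counterpart on human chromosome 21 are triplicated as well. The 6 Ts65Dn and 6 wt littermates were males aged 5 to 6 months on a mixed B6C3B background, and both regions came from each mouse, which gave 6 libraries in each of 4 groups. None of the 9 genes lies in the triplicated segments.

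The neocortex is built in layers, and each layer is laid down by neurons that take on a particular fate under the control of a few transcription factors. In broad terms Cux1 and Cux2 mark the upper layers, Rorb marks layer IV, Fezf2 and Bcl11b (Ctip2) specify the deep projection neurons of layer V, Tle4 and Tbr1 mark the corticothalamic neurons of layer VI, and Nr4a2 (Nurr1) and Ctgf (Ccn2) mark layer VIb, the remnant of the subplate. The EC is a cortex with layers of its own, whereas the HIP is an archicortex with a single layer of principal cells, in which several of the same factors are also used.

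The libraries held between 23128589 and 40476492 counts. The triplicated genes served as a check of the genotype labels, and the library labelled Ts65Dn replicate 3 did not match its label in either region. Relative to wt, its Mmu16 genes had a median fold change of 1.02 (HIP) or 1 (EC), whereas those of the other 5 Ts65Dn mice were at 1.44 or more in either region. It was kept under its label, and each genotype result that passed a test, with or without it, is given both ways. P-values between genotypes measure the spread between mice, 6 in each group. Those between regions measure the spread of the difference between HIP and EC within mice. They rest on 1 fit of the 24 libraries, in which both genotypes share 1 estimate of the spread. That fit includes the library labelled Ts65Dn replicate 3, also for results in wt. The regions matched their labels by marker genes. In wt, 9 of 10 hippocampal genes were higher in the HIP (30.3% of all genes were) and 4 of 4 entorhinal genes were lower there (28.3%). In Ts65Dn these counts were 9 of 10 (29.5% of all genes) and 3 of 4 (27%). Past a 2-fold difference, 7 of the 10 hippocampal and 0 of the 4 entorhinal genes passed in each genotype.

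**Figure D1:**
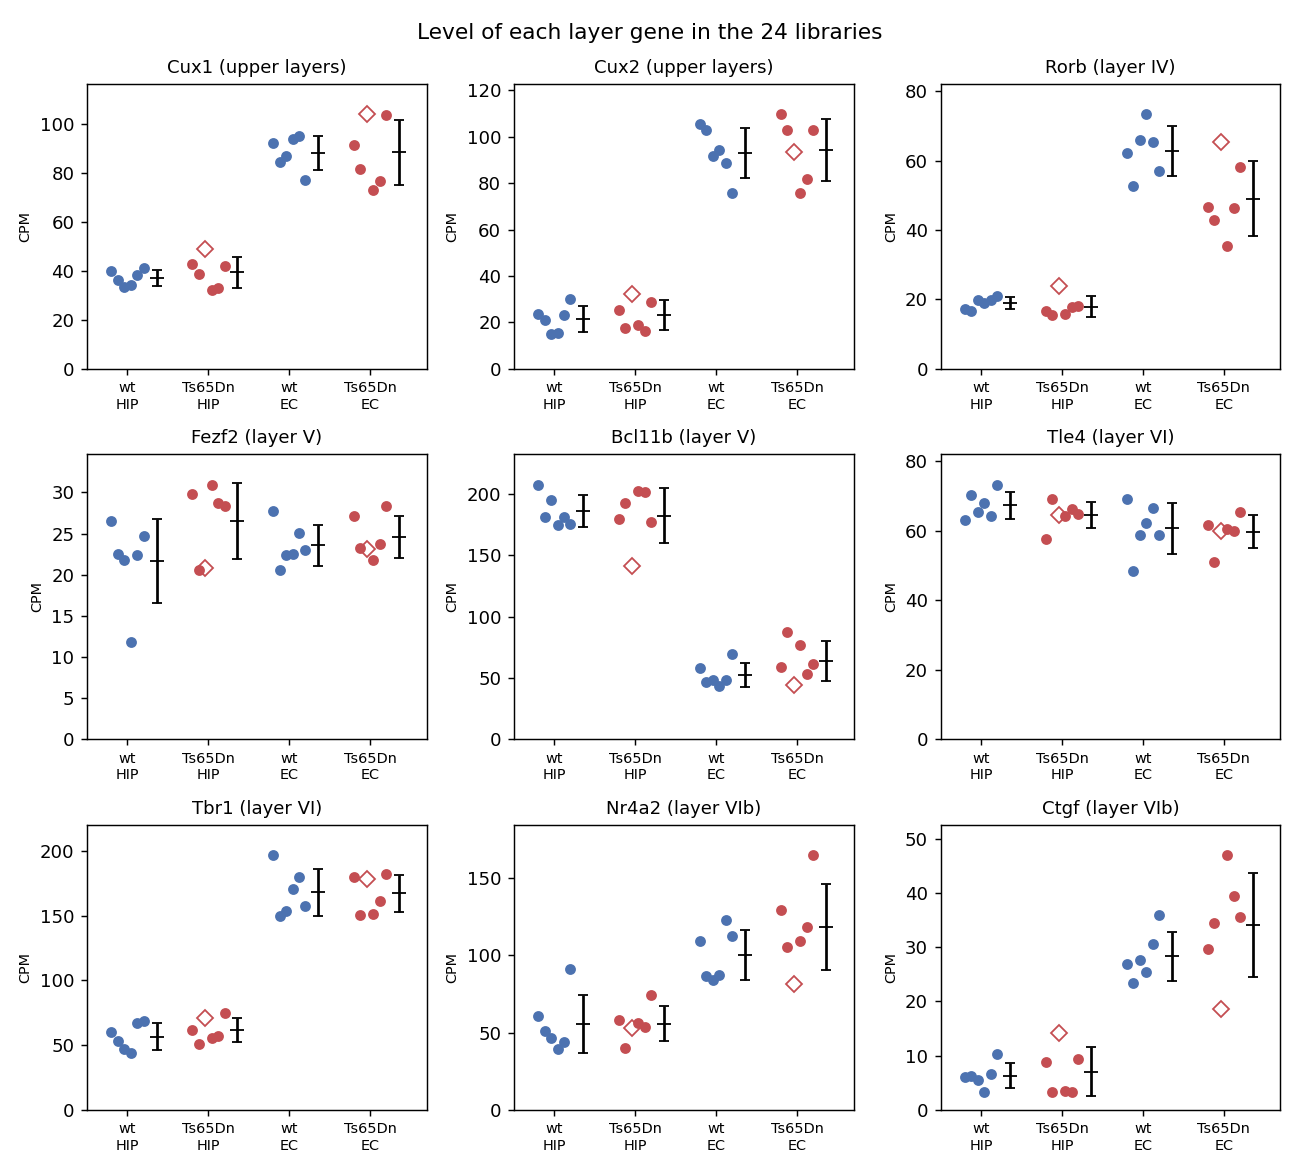
Level in CPM (the count of a gene scaled to the size of its library, linear axis from 0) of the 9 layer genes in the 24 libraries, with wt in blue, Ts65Dn in red, the library labelled Ts65Dn replicate 3 as an open diamond, and the mean and SD of each group of 6 as a black bar. Cux1, Cux2, Rorb, Tbr1 and Ctgf sit lower in the HIP than in the EC without overlap, Bcl11b sits higher, and Fezf2 and Tle4 have overlapping ranges in both regions.

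The first question was how the layer genes differ between the archicortical HIP and the layered EC. In wt mice, 6 of the 9 genes were lower in the HIP than in the EC (Cux1, Cux2, Rorb, Tbr1, Nr4a2 and Ctgf), 1 was higher (Bcl11b), and 2 did not pass the test (Fezf2 and Tle4). The same 6, 1 and 2 genes were found in Ts65Dn mice. These counts stand against a high background, because 58.6% of all genes tested were DEGs between the regions in wt (30.3% higher and 28.3% lower in the HIP) and 56.5% in Ts65Dn (29.5% higher and 27% lower). Past a 2-fold difference the background was 6.33% in wt (4.13% higher, 2.2% lower) and 5.52% in Ts65Dn (3.3% higher, 2.22% lower), and 6 of the 9 layer genes passed that test in both genotypes, namely Cux1, Cux2, Rorb, Tbr1 and Ctgf on the low side and Bcl11b on the high side. Cux1 lost this call in Ts65Dn (adjusted p = 0.0271) when Ts65Dn replicate 4, 5 or 6 was left out (0.0530 to 0.102). The groups of 6 did not overlap for 6 of the 9 genes in wt (33.4% of all genes) and for 7 in Ts65Dn (26.5%). Over the 9 genes the median log2 difference was -1.25 in wt, and over all genes tested it was 0.01. In whole tissue, fewer cells of a type and less RNA per cell cannot be told apart.

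**Figure D2:**
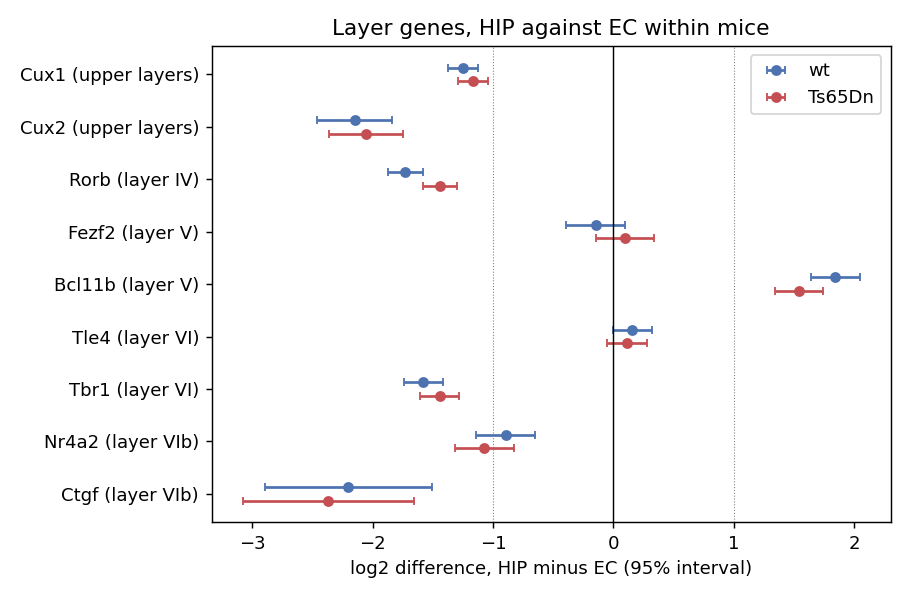
Log2 difference between HIP and EC of the same mice for the 9 layer genes, in wt (blue) and Ts65Dn (red), with 95% intervals and dotted lines at a 2-fold difference. Points left of 0 are lower in the HIP, and only Bcl11b lies right of the upper dotted line.

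The upper layer homeobox factors Cux1 and Cux2, which control dendrite and synapse formation in neurons of layers II to IV, were both EC-rich. In GRCm38 the genes lie on the same chromosome, Cux1 at chr5:136248135-136567490 and Cux2 at chr5:121856366-122050102, both on the minus strand. Cux1 ranged from 33.4 to 41.0 CPM across the wt HIP (median 37.2) and from 77.0 to 95.1 CPM in the wt EC (median 89.5). Cux2 ranged from 15.0 to 29.9 CPM across the wt HIP (median 22.0) and from 75.7 to 105.4 CPM in the wt EC (median 92.9). For neither gene did any wt HIP library reach the lowest EC library. The Ts65Dn ranges were 32.3 to 48.9 CPM (HIP, median 40.3) and 73.2 to 104.1 CPM (EC, median 86.7) for Cux1, and 16.3 to 32.0 CPM (HIP, median 22.2) and 75.6 to 109.8 CPM (EC, median 98.2) for Cux2. The regions were apart here too, and the highest HIP value of both genes came from the library labelled Ts65Dn replicate 3. Cux1 was 2.38-fold higher in the EC in wt (log2 difference HIP minus EC -1.25, SE 0.059) and 2.24-fold in Ts65Dn (-1.16, SE 0.058). Cux2 was 4.43-fold higher in the EC in wt (-2.15, SE 0.15) and 4.16-fold in Ts65Dn (-2.06, SE 0.15). The adjusted p-values of edgeR's quasi-likelihood test for these differences were 1.38e-10 and 3.11e-10 for Cux1 and 6.90e-09 and 1.21e-08 for Cux2. In the individual wt mice the EC level of Cux2 was between 2.53 and 6.12 times the HIP level of the same mouse, while that of Cux1 was between 1.88 and 2.75 times. Cux2 was the more spread of the pair in the wt HIP, with a coefficient of variation of 26.2% against 8.32% for Cux1.

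Other genes of the upper layers were mostly lower in the HIP as well. Of 15 such genes, 11 were lower and 4 were higher in the HIP, in wt and in Ts65Dn alike, with a median log2 difference of -1.35 in wt. Over all genes tested, 28.3% were lower and 30.3% higher in wt, and 27% and 29.5% in Ts65Dn. Otof, which encodes the calcium sensor otoferlin, differed by -3.80 on the log2 scale in wt, Rspo1, a secreted activator of Wnt signalling, by -2.47, Plxnd1, a semaphorin receptor, by -2.44, and Lamp5, a membrane protein of superficial neurons, by -2.35. The 4 genes with the direction opposite to Cux1 and Cux2, named here after their values were seen, were the POU-domain factor genes Pou3f1 (2.29) and Pou3f3 (0.72), the adhesion protein gene Mdga1 (1.62) and the sodium channel gene Scnn1a (1.62).

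Rorb, an orphan nuclear receptor that directs the clustering of layer IV neurons, was EC-rich as well. The gene lies at chr19:18930605-19111196 on the minus strand. It ranged from 16.5 to 21.0 CPM across the wt HIP (median 19.3) and from 52.6 to 73.4 CPM in the wt EC (median 63.9). The Ts65Dn range was 15.6 to 23.8 CPM for the HIP (median 17.2) and 35.4 to 65.3 CPM for the EC (median 46.4). The regions did not overlap in either genotype, and the highest Ts65Dn value in each region came from the library labelled Ts65Dn replicate 3. Rorb was 3.31-fold higher in the EC in wt (log2 difference HIP minus EC -1.73, SE 0.067, edgeR adjusted p = 1.69e-11) and 2.71-fold higher in Ts65Dn (-1.44, SE 0.067, edgeR adjusted p = 1.57e-10).

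The 250 bases before the start of Rorb are shown because Rorb is the layer gene with the largest difference between genotypes described further on, and this window overlaps no annotated exon. In the RefSeq promoters of GRCm38.p6, Rorb is on the minus strand and the window at its outer start is chr19:19111197-19111446, with a GC content of 66.0% against a median of 52.4% over 32851 promoters. Capitals mark CCAAT boxes (CCAAT) and GC boxes (GGGCGG), on either strand, and no match overlaps one of another motif.
Rorb: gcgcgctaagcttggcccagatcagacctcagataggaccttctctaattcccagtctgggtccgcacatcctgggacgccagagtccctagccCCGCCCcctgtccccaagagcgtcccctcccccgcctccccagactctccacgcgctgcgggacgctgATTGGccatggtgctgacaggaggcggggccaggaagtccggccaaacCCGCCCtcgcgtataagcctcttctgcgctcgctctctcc
The window held 1 CCAAT box and 2 GC boxes, motifs found in 33.8% and 32.7% of all promoters of this length. It held neither the TATA box (TATAAA) nor the core of the cyclic AMP response element (TGACG), which 12.4% and 17.8% of promoters hold. The window at the other RefSeq start of Rorb, chr19:19001118-19001367, also overlaps no annotated exon. It had a GC content of 39.2% and held none of these motifs. A match of letters is a description and was not tested as a binding site.

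Of the layer V factors, 1 differed between the regions and 1 did not pass the test. Fezf2 (chr14:12342094-12348189, minus strand), the zinc finger factor that selects the corticospinal fate, ranged from 11.8 to 26.5 CPM across the wt HIP (median 22.5) and from 20.6 to 27.8 CPM in the wt EC (median 22.7). The Ts65Dn ranges were 20.6 to 30.9 CPM (HIP, median 28.5) and 21.8 to 28.4 CPM (EC, median 23.5). The regions overlapped in both genotypes, and the lowest wt HIP library, wt replicate 4, stood apart from the other 5. The log2 difference HIP minus EC was -0.15 in wt (95% interval -0.39 to 0.10, edgeR adjusted p = 0.284) and 0.10 in Ts65Dn (-0.14 to 0.34, adjusted p = 0.489). Without wt replicate 4 the wt difference was -0.00425.

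Bcl11b (chr12:107910403-108003602, minus strand), the zinc finger factor that acts downstream of Fezf2 in layer V and is also strongly expressed by hippocampal CA1 and dentate granule cells, was the only layer gene that was higher in the HIP. It ranged from 174.8 to 207.6 CPM across the wt HIP (median 181.2) and from 43.1 to 69.8 CPM in the wt EC (median 48.2). The Ts65Dn range was 141.4 to 202.0 CPM for the HIP (median 186.2) and 44.4 to 87.8 CPM for the EC (median 60.3). No EC library came near the lowest HIP library, which was the one labelled Ts65Dn replicate 3. Bcl11b was 3.59-fold higher in the HIP in wt (log2 difference 1.84, SE 0.095, edgeR adjusted p = 3.47e-10) and 2.91-fold higher in Ts65Dn (1.54, SE 0.094, edgeR adjusted p = 2.24e-09).

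Among 12 other layer V genes, 7 were lower and 4 were higher in the HIP and 1 did not pass, with the same counts in each genotype. Shares over all genes tested were 28.3% lower and 30.3% higher in wt, and 27% and 29.5% in Ts65Dn. The 4 DEGs that differed most in wt were Qrfpr, a neuropeptide receptor (-1.85), Rbp4, the retinol carrier that marks layer V neurons (-1.78), S100a10, a calcium-binding protein family member (-1.52), and Crym, a thyroid hormone binding protein (1.28). Crym had the direction of Bcl11b, and the first 3 had the opposite one.

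Tle4 (chr19:14448150-14598051, minus strand), a Groucho-type corepressor of layer VI, did not pass the test between the regions. It ranged from 63.0 to 73.2 CPM across the wt HIP (median 66.6) and from 48.4 to 69.2 CPM in the wt EC (median 60.5). The Ts65Dn ranges were 57.7 to 69.1 CPM (HIP, median 64.6) and 51.1 to 65.2 CPM (EC, median 60.1). The regions overlapped, and 4 of 6 mice of each genotype had the higher value in the HIP. The log2 difference was 0.16 in wt (95% interval -0.0064 to 0.32, edgeR adjusted p = 0.0916) and 0.11 in Ts65Dn (-0.051 to 0.28, adjusted p = 0.228). The wt call depended on settings, as the adjusted p was 0.0431 when genes with low counts were kept and 0.0311 without wt replicate 1. Of 5 relatives in the TLE family, all 5 were DEGs in wt, 2 higher and 3 lower in the HIP, where 58.6% of all genes tested were DEGs. Among them were Tle6 at -1.24, Tle1 at 0.80, Tle2 at 0.49 and Tle3 at -0.32. In Ts65Dn 1 of the 5 was higher (29.5% of all genes were), 3 were lower (27%) and 1 did not pass.

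Tbr1 (chr2:61802930-61814114, plus strand), the T-box factor that specifies corticothalamic neurons and represses the layer V programme, ranged from 43.7 to 68.7 CPM across the wt HIP (median 56.3) and from 150.0 to 196.8 CPM in the wt EC (median 164.0). The Ts65Dn ranges were 50.8 to 75.2 CPM (HIP, median 59.4) and 150.7 to 182.0 CPM (EC, median 169.9). The regions were apart in both genotypes. It was 2.99-fold higher in the EC in wt (log2 difference HIP minus EC -1.58, SE 0.076, edgeR adjusted p = 1.71e-10) and 2.72-fold higher in Ts65Dn (-1.44, SE 0.076, edgeR adjusted p = 4.65e-10). Other layer VI genes were split, with 4 of 8 lower, 2 higher and 2 not passing in wt (28.3% of all genes were lower and 30.3% higher). Foxp2, a forkhead factor of corticothalamic neurons, had a log2 difference of -2.17, the neurotensin receptor gene Ntsr1 one of -1.64 and the cell cycle gene Rprm one of -1.55, all lower in the HIP like Tbr1, while Zfpm2, a GATA cofactor, was higher by 1.64.

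Nr4a2 (chr2:57106830-57124003, minus strand), an orphan nuclear receptor of layer VIb, the claustrum and deep entorhinal neurons that is also induced by neuronal activity, had the smallest regional difference of the 6 EC-rich genes. It ranged from 39.5 to 91.4 CPM across the wt HIP (median 48.9) and from 84.4 to 122.8 CPM in the wt EC (median 98.2). The Ts65Dn ranges were 40.0 to 74.5 CPM (HIP, median 54.9) and 81.6 to 165.0 CPM (EC, median 113.9). The wt ranges overlapped through a single HIP library, wt replicate 6, the Ts65Dn ranges did not overlap, and the HIP value was the lower one in 6 of 6 mice in each genotype. Nr4a2 was 1.86-fold higher in the EC in wt (log2 difference HIP minus EC -0.90, SE 0.12, edgeR adjusted p = 7.02e-06) and 2.11-fold higher in Ts65Dn (-1.07, SE 0.11, edgeR adjusted p = 1.10e-06). It did not pass the test against 2-fold. Its relative Nr4a3, which is induced by activity in the same way, had the opposite direction. It was higher in the HIP by 1.73 on the log2 scale for wt and by 1.84 for Ts65Dn. The other relative, Nr4a1, did not share the direction of Nr4a3 and was lower in the HIP in wt.

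Because Nr4a2 belongs to the activity-induced genes, the 250 bases before its start are shown with the matches to the cyclic AMP response element. The RefSeq window in GRCm38.p6 is chr2:57124004-57124253, the gene is on the minus strand, the window overlaps no annotated exon, and its GC content is 80.0%. Capitals mark the core TGACG, the GC box GGGCGG and the TATA box TATAAA, each on either strand, without overlap between motifs.
Nr4a2: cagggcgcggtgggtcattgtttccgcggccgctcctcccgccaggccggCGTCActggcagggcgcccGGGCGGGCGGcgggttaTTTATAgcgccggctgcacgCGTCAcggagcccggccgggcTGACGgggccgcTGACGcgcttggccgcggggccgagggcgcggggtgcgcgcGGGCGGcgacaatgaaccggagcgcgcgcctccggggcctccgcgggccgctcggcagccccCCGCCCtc
This window held 4 such cores, where 17.8% of all promoters hold at least 1, together with 4 GC boxes and 1 TATA box. The full palindrome TGACGTCA, found in 1.55% of promoters, was not among its letters.

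Activity genes as a list were EC-rich in wt, with 7 of 9 lower in the HIP, 1 higher (Nr4a3) and 1 not passing. Of all genes tested, 28.3% were lower and 30.3% higher there. The largest differences besides Nr4a3 were those of Dusp1, a MAP kinase phosphatase (-1.52), and of the AP-1 subunits Fos (-1.43) and Fosb (-1.28). Their summed level also varied between mice, from 260.3 to 1513 CPM in the Ts65Dn EC, and Ts65Dn replicate 6, which had the highest sum, had the highest Nr4a2 level as well (165.0 CPM). In the wt HIP the highest sum (593.7 CPM) and the highest Nr4a2 level (91.4 CPM) both belonged to wt replicate 6, and in the Ts65Dn HIP both belonged to Ts65Dn replicate 6. The wt EC was the exception, with the highest sum in wt replicate 6 and the highest Nr4a2 level in wt replicate 5. The part of activity in the levels of Nr4a2 was not tested.

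Ctgf (chr10:24595442-24598683, plus strand), a secreted matrix-associated protein whose transcript marks layer VIb neurons, had the lowest CPM in the HIP and the widest spread there. It ranged from 3.31 to 10.3 CPM across the wt HIP (median 6.09) and from 23.3 to 36.0 CPM in the wt EC (median 27.3). The Ts65Dn range was 3.21 to 14.2 CPM for the HIP (median 6.15), resting on as few as 82 counts, and 18.6 to 47.0 CPM for the EC (median 34.98). The library labelled Ts65Dn replicate 3 was the highest of its group in the HIP and the lowest in the EC, and the regions did not overlap. Ctgf was 4.6-fold higher in the EC in wt (log2 difference HIP minus EC -2.20, SE 0.32, edgeR adjusted p = 2.85e-05) and 5.17-fold higher in Ts65Dn (-2.37, SE 0.33, edgeR adjusted p = 2.03e-05). Without the library labelled Ts65Dn replicate 3 the Ts65Dn difference was -2.79 (SE 0.26). The noncoding gene Gm15270 overlaps 23.2% of the exon length of Ctgf on the other strand, and reads from that stretch cannot be told apart unless strand was used in counting.

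Of 8 other layer VIb genes, 5 were lower and 2 were higher in the HIP in each genotype. The shares over all genes were 28.3% and 30.3% in wt, and 27% and 29.5% in Ts65Dn. Cplx3, a complexin of the presynaptic release machinery and a standard marker of layer VIb, differed by -2.22 in wt on the log2 scale, followed by Tmem163, a zinc-binding vesicle protein (-1.54), and Nxph4, a neurexophilin (-1.46). Kcnab1, a potassium channel beta subunit, was higher in the HIP by 1.16. Markers of the claustrum, which also expresses Nr4a2, were lower in the HIP for 3 of 4 genes in wt (28.3% of all genes were). Their summed level was 234.0 to 287.1 CPM in the wt HIP and 417.1 to 492.7 CPM in the wt EC. None of the 4 was at 0, and their part in the Nr4a2 difference was not tested.

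**Figure D3:**
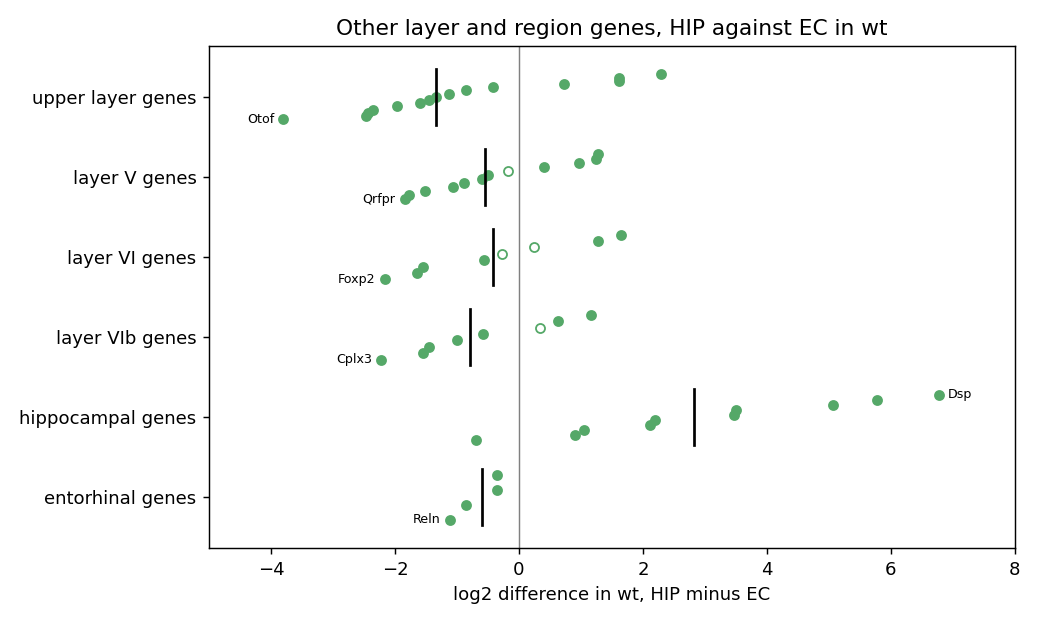
Log2 difference between HIP and EC in wt for other genes of each layer and for hippocampal and entorhinal genes, where filled points passed edgeR's test, open points did not, and the black bar is the median of the list. Medians of the layer lists lie left of 0, from -1.35 for the upper layers to -0.42 for layer VI, while that of the hippocampal genes is 2.83.

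Genes that act with the layer genes in fate decisions did not share a direction. Of 17 such partners tested, 8 were higher and 7 were lower in the HIP in wt, with a median log2 difference of 0.0048. Among all genes tested, 30.3% were higher and 28.3% lower. Eomes (Tbr2), the T-box relative of Tbr1 that marks intermediate progenitors, was a DEG in both genotypes, at 0.439 to 3.18 CPM in the wt HIP and 0.255 to 2.18 CPM in the Ts65Dn HIP, and at no more than 0.0380 CPM and 0.0824 CPM in the EC of the same mice, levels too near 0 for a fold to be given. Neurod6, a factor of pyramidal neurons, was higher in the HIP by 1.86 on the log2 scale, whereas the POU-domain factor gene Pou3f2 was lower, at -1.13. Cell types other than neurons also differed between the dissections. Oligodendrocyte genes summed to between 5318 and 7310 CPM in the wt HIP and between 1122 and 2193 CPM in the wt EC, and choroid plexus genes to between 92.6 and 4872 CPM in the wt HIP and between 12.2 and 51.0 CPM in the wt EC. In wt, all 4 oligodendrocyte and all 5 choroid plexus genes were higher in the HIP (30.3% of all genes tested were). In the same mice 4 of 4 microglia and 6 of 6 endothelial genes were lower there (28.3% of all genes). In Ts65Dn, 3 of 4 microglia and 5 of 6 endothelial genes were lower in the HIP (27% of all genes). The part of these cell types in the lower levels of the layer genes in the HIP was not tested.

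Levels were also expressed per kilobase of exon, as a rough comparison between genes. The length was that of all annotated exons of a gene joined (20024 bases for Cux1), which can exceed that of the transcripts present. Bcl11b then ranked first in the wt HIP with a mean of 22.9 CPM per kilobase, followed by Nr4a2 (13.7), Tle4 (11.8), Tbr1 (10.3) and Fezf2 (7.11). Ctgf (2.20), Cux2 (2.12), Cux1 (1.85) and Rorb (1.70) formed a low group in the HIP. Within each of these groups the ranges of neighbours overlapped, and only the step from Fezf2 to Ctgf was clear. In the wt EC, Tbr1 (30.6) and Nr4a2 (24.8) came first and overlapped with each other. They were separated from Tle4 (10.6), Ctgf (9.89), Cux2 (9.23), Fezf2 (7.73), Bcl11b (6.46) and Rorb (5.67), each of which overlapped its neighbour, and Cux1 came last with 4.41 CPM per kilobase. Bcl11b, which led in the HIP, thus came at rank 7 of 9 in the EC. The Ts65Dn order was the same for the HIP and, for the EC, differed by an exchange of Ctgf and Tle4, and Rorb and Cux1, separate in wt, overlapped there.

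The second question was whether the trisomy alters layer genes. In the HIP, 0 of the 9 were DEGs between Ts65Dn and wt by edgeR's quasi-likelihood test, in which 1.04% of all genes tested were DEGs, and 0 had an unadjusted p under 0.05, where the share over all genes was 14.8%. DESeq2 also called 0 of the 9. The groups of 6 overlapped for all 9, where 1.67% of all genes did not overlap. Log2 fold changes of the 9 genes ranged from -0.076 to 0.29 (adjusted p between 0.458 and 0.994). The largest was that of Fezf2, with 20.6 to 30.9 CPM in Ts65Dn (median 28.5) and 11.8 to 26.5 CPM in wt (median 22.5). The groups overlapped, and the log2 fold change was 0.29 (95% interval -0.068 to 0.64, edgeR adjusted p = 0.458), and 0.17 without the low wt replicate 4. The intervals of the other genes differed in width. Those of Tle4 (fold 0.886 to 1.03) and Bcl11b (0.871 to 1.10) were narrow, and that of Ctgf was wide (0.639 to 1.95). Without the library labelled Ts65Dn replicate 3, 0 of the 9 passed as well (1.82% of all genes did), and an unadjusted p under 0.05 was found for 1 of the 9 (17% of all genes), Rorb, with a log2 fold change of -0.18 (SE 0.073, unadjusted p = 0.0315, edgeR adjusted p = 0.243).

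In the EC, 0 of the 9 were DEGs as well, where 2.5% of all genes tested were, and the groups overlapped for all 9 (2.46% of all genes did not overlap). DESeq2 called 0 of the 9 here too. An unadjusted p under 0.05, which 19% of all genes had, was found for 1 of the 9, Rorb, with 35.4 to 65.3 CPM in Ts65Dn (mean 49.1, SD 10.8) and 52.6 to 73.4 CPM in wt (mean 62.8, SD 7.29). The 2 highest Ts65Dn values fell inside the wt range and the other 4 lay below the lowest wt value. The log2 fold change was -0.37 (SE 0.12, 95% interval -0.63 to -0.10, unadjusted p = 0.00995, edgeR adjusted p = 0.126). Without the library labelled Ts65Dn replicate 3, which held the highest Ts65Dn value, it was -0.46 (SE 0.11) and passed the test (edgeR adjusted p = 0.0422), in a fit in which 2.79% of genes were DEGs. Without that library 4 of the 9 genes had an unadjusted p under 0.05 (19% of all genes did), namely Rorb, Ctgf, Bcl11b and Nr4a2. Leaving out any other mouse gave an adjusted p above the threshold, up to 0.254. The paralogue Rora, a retinoic acid receptor-related orphan receptor, was a DEG in the EC with all mice, with a log2 fold change of -0.28 (SE 0.065, edgeR adjusted p = 0.0362). It was at 75.4 to 98.0 CPM in Ts65Dn against 95.4 to 118.6 CPM in wt, and without that library its log2 fold change was -0.32 (edgeR adjusted p = 0.0201).

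The deep layer genes Bcl11b, Nr4a2 and Ctgf had positive but uncalled values in the EC. The Ts65Dn range of Nr4a2 in the EC was 81.6 to 165.0 CPM (median 113.9), against 84.4 to 122.8 CPM in wt. In all 3 the groups overlapped, and the lowest Ts65Dn value came from the library labelled Ts65Dn replicate 3. Log2 fold changes were 0.28 for Bcl11b (edgeR adjusted p = 0.352), 0.23 for Nr4a2 (0.423) and 0.26 for Ctgf (0.444). Without that library they were 0.36 (adjusted p = 0.175), 0.31 (0.185) and 0.39 (0.103), and none passed. Cux1 (-0.0063), Cux2 (0.012), Tbr1 (-0.015), Tle4 (-0.032) and Fezf2 (0.054) had log2 fold changes close to 0 with all mice, and their intervals stayed between folds of 0.869 and 1.17.

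**Figure D4:**
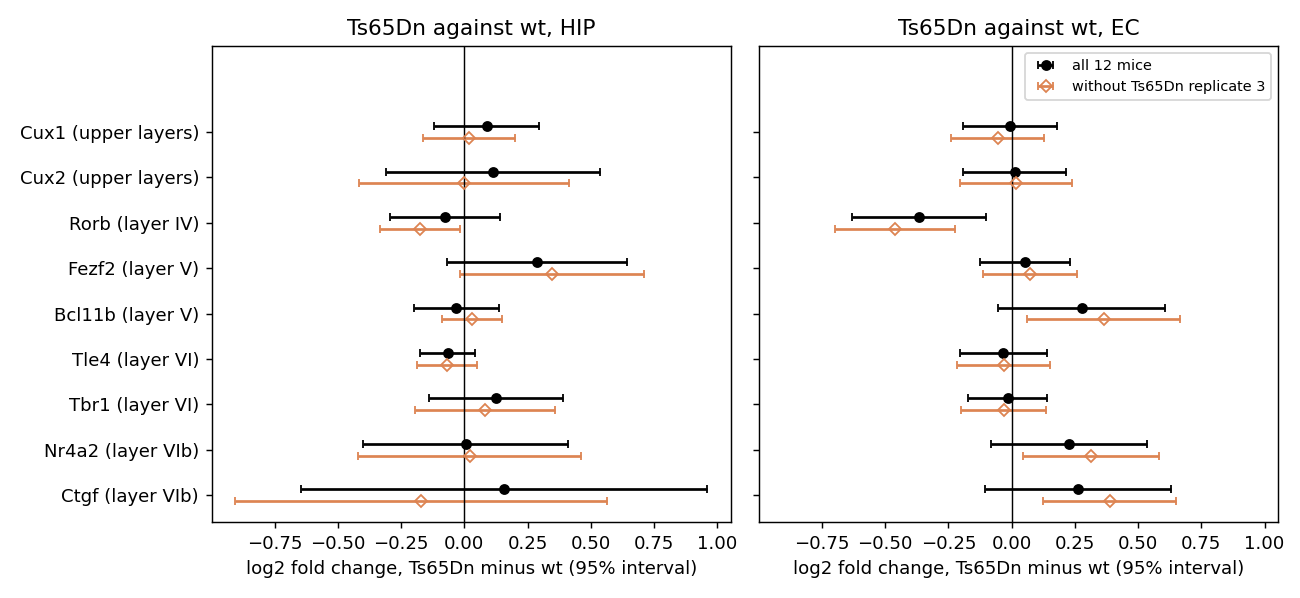
Log2 fold change of Ts65Dn against wt with its 95% interval in the HIP (left) and the EC (right), with all 12 mice (filled circles) and without the library labelled Ts65Dn replicate 3 (open diamonds). In the HIP with all mice every interval includes 0, and in the EC only that of Rorb lies below 0.

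Other layer genes were compared between genotypes list by list, where 1.04% (HIP) and 2.5% (EC) of all genes tested were DEGs. In the HIP, 0 of the 15 upper layer, 12 layer V, 8 layer VI and 8 layer VIb genes were DEGs. In the EC the layer V, VI and VIb lists again held 0, and the upper layer list held 2, of which Calb1 is also on the entorhinal list. Calb1, the calcium buffer calbindin of superficial and entorhinal neurons, fell by 0.31 on the log2 scale in Ts65Dn (SE 0.052, edgeR adjusted p = 0.00922), with 186.5 to 213.7 CPM against 223.2 to 260.3 CPM in wt and no overlap. Mdga1, an adhesion protein of superficial neurons, was higher by 0.41 (SE 0.092, edgeR adjusted p = 0.0326), with 29.7 to 44.6 CPM against 25.1 to 31.3 CPM. Without the library labelled Ts65Dn replicate 3 these values were -0.30 (edgeR adjusted p = 0.00990) and 0.47 (0.00689). Of 8 striatal markers, genes of the medium spiny neurons that also express Bcl11b, 1 was a DEG in the EC, the dopamine receptor gene Drd2, at 1.84 to 6.92 CPM in Ts65Dn and 0.646 to 2.23 CPM in wt (log2 fold change 1.56, edgeR adjusted p = 0.0254, and 1.70 without that library, adjusted p = 0.00940). Their summed level was 202.2 to 332.0 CPM in the Ts65Dn EC and 212.3 to 234.2 CPM in the wt EC, none of the 8 was at 0, and their part in the Bcl11b levels was not tested. Of 4 microglia markers, the receptor gene P2ry12 was a DEG in each region, its log2 fold change being -0.27 for the HIP (edgeR adjusted p = 0.0422) and -0.45 for the EC (0.0226), or -0.27 (0.0483) and -0.42 (0.0309) without that library.

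Whether the trisomy changed the layer genes differently in the HIP and the EC was asked with the interaction of genotype and region. By edgeR's test 0 of 18109 genes passed, 742 (4.1%) had an unadjusted p under 0.05, and DESeq2 called 0 as well. Among the layer genes, 2 of 9 had an unadjusted p under 0.05. They were Rorb, whose difference between the regions was estimated as smaller in Ts65Dn (interaction 0.29 on the log2 scale, SE 0.094, unadjusted p = 0.00754), and Bcl11b, likewise estimated as smaller (-0.30, SE 0.13, unadjusted p = 0.0331), with an edgeR adjusted p of 0.9998 for both. Without the library labelled Ts65Dn replicate 3 the values were 0.29 and -0.33.

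The last comparison concerned the variation between mice of the same group. Deviations of log2 CPM from the 4 group means were correlated between layer genes, which is a description, since genes of a library share its dissection and depth. Over 24 libraries Cux2 and Tbr1 varied together (Pearson's r = 0.80), as did Cux1 and Cux2 (0.75) and Cux1 and Rorb (0.70). Bcl11b varied against Rorb (-0.68) and Cux1 (-0.58). The library labelled Ts65Dn replicate 3 contributed to these values, being the highest of its group in the HIP for Cux1, Cux2, Rorb and Ctgf and the lowest for Bcl11b. Without it, r between Bcl11b and Rorb moved from -0.77 to -0.34 over the HIP libraries and from -0.66 to -0.50 over the EC libraries. That between Cux1 and Rorb moved from 0.52 to 0.08 (HIP) and from 0.86 to 0.82 (EC). Cux1 and Cux2 stayed closer to their first values, at 0.87 and 0.84 (HIP) and 0.61 and 0.70 (EC).

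Ctgf had r of opposite sign in the 2 regions with Cux1 and Cux2. With Cux2 it was 0.91 over the 12 HIP libraries and -0.56 over the 12 EC libraries, and with Cux1 it was 0.87 and -0.69. Without the library labelled Ts65Dn replicate 3 the values were 0.89 and -0.92 with Cux2, and 0.80 and -0.57 with Cux1. With the summed level of the 15 other upper layer genes, r of Ctgf was weaker, at 0.29 (HIP) and -0.65 (EC), or 0.35 and -0.39 without that library.

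Each layer gene except Rorb, for which there was no layer IV list, was also set against the summed level of its own layer list. With the upper layer list, r of Rorb was 0.52 (HIP) and 0.72 (EC). For the upper layers, r was 0.17 (HIP) and 0.44 (EC) for Cux1 and 0.36 and 0.18 for Cux2. For layer V it was 0.86 and -0.40 for Fezf2 and 0.29 and 0.65 for Bcl11b. For layer VI it was -0.41 and 0.77 for Tle4 and -0.24 and 0.76 for Tbr1, and for layer VIb 0.61 and 0.63 for Nr4a2 and -0.07 and 0.93 for Ctgf. With all libraries Fezf2, Tle4, Tbr1 and Ctgf thus had a different sign in each region. Without the library labelled Ts65Dn replicate 3 the HIP and EC values were 0.21 and 0.22 (Cux1), 0.40 and 0.22 (Cux2), and 0.86 and 0.58 (Rorb). They were 0.86 and -0.57 (Fezf2), 0.25 and 0.53 (Bcl11b), -0.42 and 0.80 (Tle4), and -0.16 and 0.88 (Tbr1). For layer VIb they were 0.64 and 0.34 (Nr4a2) and 0.21 and 0.82 (Ctgf), so that Ctgf no longer had a different sign in each region. In wt the median sums were higher in the HIP than in the EC for layer V (609.8 against 487.6 CPM), VI (323.8 against 295.9) and VIb (287.6 against 197.0). For the upper layers the median sum was lower in the HIP (754.5 against 1513 CPM).

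Against the sum of hippocampal genes, r was negative in both regions for Cux1 (-0.73 in the HIP, -0.84 in the EC), Cux2 (-0.71, -0.66) and Rorb (-0.79, -0.59). The same held for Tbr1 (-0.57, -0.82), Nr4a2 (-0.24, -0.30) and Tle4 (-0.06, -0.55). For the others r was -0.77 and 0.40 (Ctgf), 0.92 and 0.15 (Bcl11b), and 0.20 and -0.73 (Fezf2). In the Ts65Dn HIP the lowest sum, 709.8 CPM, belonged to the library labelled Ts65Dn replicate 3. Without it the HIP values were -0.53 (Cux1), -0.72 (Cux2), -0.31 (Rorb), -0.67 (Ctgf) and 0.75 (Bcl11b). Those of the other genes were -0.65 (Tbr1), -0.57 (Nr4a2), -0.07 (Tle4) and -0.18 (Fezf2). With the sum of entorhinal genes, r in the EC was also negative for Cux1 (-0.80), Cux2 (-0.59), Rorb (-0.71) and Tbr1 (-0.87). The same held there for Nr4a2 (-0.26), Tle4 (-0.67) and Fezf2 (-0.74), whereas Bcl11b (0.40) and Ctgf (0.40) were positive. In the HIP, r with the entorhinal sum was positive for all but Bcl11b (-0.05, or 0.20 without that library), up to 0.76 for Nr4a2. Genes of other cell types moved with layer genes as well. Fezf2 had an r of -0.58 (HIP) and -0.90 (EC) with astrocyte markers, Tbr1 of -0.46 and 0.87 with oligodendrocyte markers, and Nr4a2 of -0.30 and 0.91 with claustrum markers. These 3 pairs were picked for their EC values among the 9 layer genes and all lists. The part of dissection and of cell types in these correlations was not tested.

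**Figure D5:**
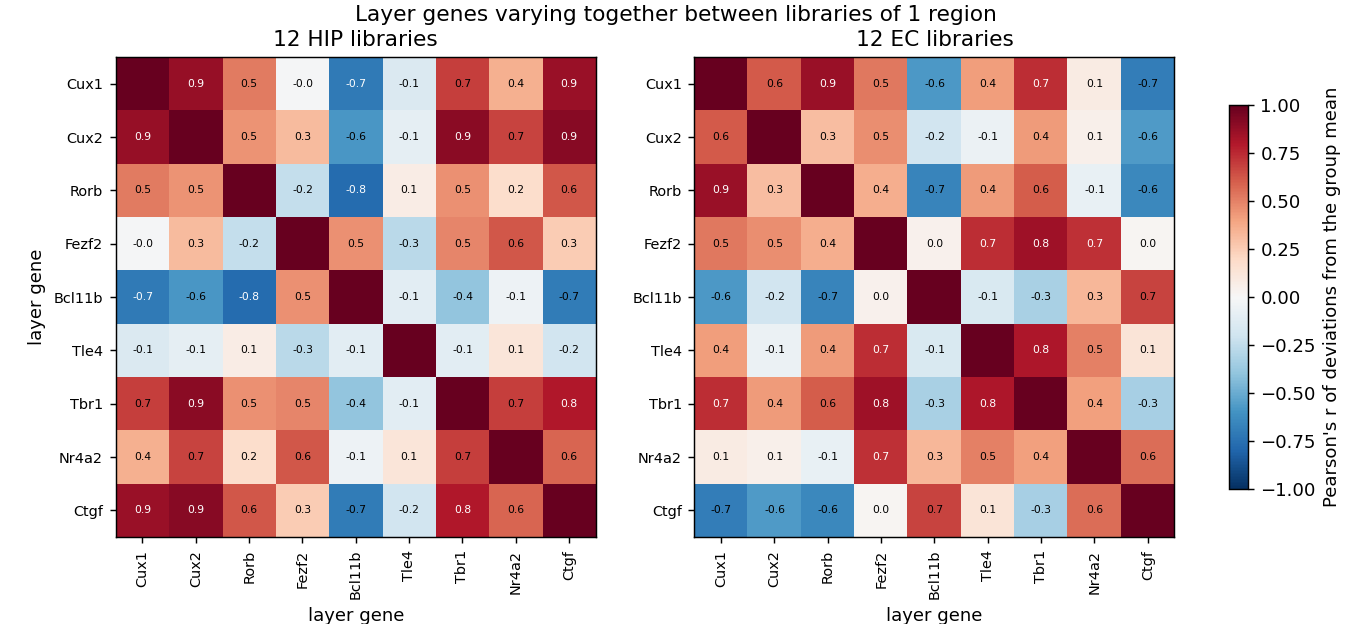
Pearson's r between the 9 layer genes over the 12 HIP libraries (left) and the 12 EC libraries (right), computed on deviations of log2 CPM from the group mean, with red for positive and blue for negative values. The row of Ctgf is mostly red in the HIP and turns blue against Cux1, Cux2 and Rorb in the EC, and the row of Bcl11b is blue against Cux1 and Rorb in both.

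Between the HIP and EC of the same mouse, r was highest for Rorb (0.72 over 12 mice) and Cux1 (0.65) and lowest for Tle4 (-0.61) and Ctgf (-0.48). The mouse labelled Ts65Dn replicate 3 was the highest of its group in both regions for Rorb and Cux1. For Ctgf it was the highest in the HIP and the lowest in the EC. These r were not computed without that mouse. Among 14873 genes with a mean of at least 1 CPM, those whose deviations over the 24 libraries were most like each layer gene were listed. For Ctgf these included Cplx3 (r = 0.87), also of layer VIb, and Klf5 (0.84), and for Tbr1 they included Efhd2 (0.91) and Kcnk3 (0.89). Nr4a2 was closest to Fosl2, an AP-1 subunit (0.82), Rprd1b (0.78) and Nxph3 (0.76). Rorb was closest to the potassium channel gene Kcna2 (0.90), Marf1 (0.87) and Nova1 (0.86), and Cux1 to Epb41 (0.87), Gcnt4 (0.86) and Mtcl1 (0.85). Cux2 was closest to Cit (0.87), Ccdc184 (0.85) and Klf5 (0.85), which it shared with Ctgf, and Fezf2 to Pnkd (0.91), Etv5 (0.88) and Clcn2 (0.86). For Bcl11b they were Ptpre (0.84), Gm26644 (0.84) and Tnfaip8l3 (0.82), and for Tle4 Trappc8 (0.80), Gm21984 (0.77) and Zfp52 (0.76). The median r over all genes was near 0 for each layer gene, between -0.0089 and 0.028. The 99th percentile of r was between 0.58 (Tle4) and 0.73 (Tbr1), and the genes named are the highest of all.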

How the data were processed

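RNA-Seq libraries of the HIP and EC of 6 wt and 6 Ts65Dn male mice were analysed, 24 in all, grouped by the sample labels. Reads of 50 bases from 1 end were aligned by the authors with Hisat2, GRCm38 and Ensembl release 99 serving as genome and annotation. They deposited raw HTSeq-count counts for 55385 genes, without normalization. The deposited tables of the authors' own DESeq2 and FCROS comparisons (mean levels, fold changes and p-values) were not used. The strand setting of the counting is not given in the sources used here, and the enrichment is described in 2 ways, as an mRNA kit in the labels and as ribosomal RNA removal followed by polyA RNA in the methods.

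Members were matched by gene identifier through GENCODE vM21. CPM are counts divided by the library size, scaled over the 24 libraries by TMM (edgeR 4.0.16, R 4.3.3). Totals per library were 23128589 to 40476492 counts. A gene passing edgeR's quasi-likelihood test after filterByExpr was a DEG, at a Benjamini-Hochberg adjusted p under 0.05 over all genes tested. Ts65Dn was compared with wt within each region (6 against 6 libraries). HIP was compared with EC in 1 fit of the 24 libraries with a term for each mouse, which also gave the genotype by region interaction, and glmTreat tested differences past 2-fold. The animal numbers in the titles pair HIP with EC, and deviations from the group means correlated within every mouse (r between 0.198 and 0.553). Tests were tried on simulated counts, where 59.5% of 200 genes changed 1.5-fold were recovered in the HIP comparison, 58% in the EC, 64% between regions and 46.5% in the interaction.

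The members and gene lists were chosen with earlier results of these data known. All 9 members are named, and from each list up to 4 DEGs with the largest log2 difference. A few genes that this rule selects are not reported here. Alternatives were DESeq2 1.42.0, its size factors, no filter or at least 10 counts in every library, a replicate block or none, the 12 libraries of each genotype alone, and leaving out each mouse. Sequences are from RefSeq (GRCm38.p6).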

Additional observations from a re-analysis of the deposited data

Results flagged for a closer look

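Within the groups of 6 libraries, the highest or lowest value was compared with its nearest neighbour by Dixon's ratio for the 9 layer genes, and 2 of 36 tested groups exceeded the 95% critical value, where chance gives about 1 in 20. The Rorb level in the HIP of the library labelled Ts65Dn replicate 3 was 23.8 CPM, and the next highest Ts65Dn library was at 18.0 CPM. This is the library in which triplicated genes were at the wt level. Fezf2 in the HIP of wt replicate 4 was 11.8 CPM, and the next lowest wt library was at 21.8 CPM.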

How the results depend on the processing

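Counts of layer genes called kept their value under DESeq2, its size factors and the stricter filter on low counts. In the EC, 0 genes passed with all mice and 1 (Rorb) without the library labelled Ts65Dn replicate 3. Past 2-fold in Ts65Dn, leaving out 1 mouse gave 5 to 6 genes, and 5 passed with no replicate block, Cux1 being lost. Between regions in wt, Tle4 also passed with no filter (0.16, adjusted p = 0.0431). The numbers that wt and Ts65Dn mice share do not pair them (r between -0.247 and 0.213). With the replicate block, 29 genes passed for the HIP in place of 181, and 36 for the EC in place of 426, none of them a layer gene. Ctgf then had a value of -0.013 in the HIP (adjusted p = 0.990). DESeq2 called 576 and 1072 genes. Without 1 mouse, 54 to 318 genes passed (HIP) or 90 to 685 (EC). Differences near 0 changed sign when 1 mouse was left out. For Ts65Dn against wt, HIP values ran from -0.0017 to 0.24 (Cux2), -0.062 to 0.031 (Bcl11b), -0.093 to 0.21 (Nr4a2) and -0.17 to 0.35 (Ctgf), and EC values from -0.057 to 0.043 (Cux1), -0.041 to 0.069 (Cux2), -0.089 to 0.0091 (Tle4) and -0.046 to 0.035 (Tbr1). Interaction values ran from -0.015 to 0.26 (Cux2), -0.11 to 0.030 (Tle4) and -0.59 to 0.083 (Ctgf). The cause of these changes was not tested.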
